A study of Homo sapiens with 8 samples.

Results

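The S100 genes of chromosome 1q21 encode small calcium-binding proteins that lie side by side in a cluster, and 9 of them were considered here by name: *S100A1*, *S100A2*, *S100A4*, *S100A6*, *S100A10*, *S100A11*, *S100A13*, *S100A14* and *S100A16*. The members were selected on measured values of these data, the high levels of *S100A1* and *S100A16* in cells with an activator, so each comparison of a member with the control is given as a description and without a P value. Of the 9 genes, 8 were among the 19770 genes of the files. *S100A6* was not analysed here. A gene was tested when it reached at least 1 CPM (read count scaled to the library total) in at least 2 of the 8 libraries, which 6 of the members and 15122 genes in all did. *S100A2* and *S100A14* did not reach that level in any library and are described by their values. Since that filter can be passed through the group in which a gene is high, the 6 tested members do not stand for all members.

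RNA-seq was carried out in HEK293T cells, a human embryonic kidney line that carries the SV40 large T antigen, at 72 h post-transfection, with 4 groups of 2 libraries each. Every group received a pool of gRNAs against the promoters of *HBG1* and *HBG2*, the fetal γ-globin genes, and none of the gRNAs was designed against an S100 gene. The control group received dCas9 with MCP-mCherry, a fluorescent protein without an activation domain. The DREAM group received dCas9 with MCP-MSN, a fusion of activation domains from human transcription factors, MRTF-A and NRF2 among them, that MS2 loops in the gRNA recruit. The SAM group received dCas9-VP64 with MCP-p65-HSF1. The dCas9-VPR group received VP64, p65 and Rta fused directly to dCas9, with gRNAs that lack the MS2 loops and with 375 ng of the dCas9 plasmid in place of 187.5 ng. All groups received 125 ng of gRNA plasmid. The transfection was transient, and the share of cells that took up the plasmids was not part of the data used here. In bulk RNA, more expressing cells and more RNA per cell cannot be told apart. The labels do not say whether the 2 libraries of a group came from separate cultures, so the tests measure the spread between these libraries, which may be technical.

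S100 proteins bind calcium through EF-hand motifs and act mostly as dimers. On binding calcium, most of them expose a surface that docks onto annexins, cytoskeletal proteins or enzymes, and some are secreted and bind the receptor RAGE. The cluster is known for genes that differ sharply in the tissues that use them, from cardiac muscle (*S100A1*) to stratified epithelium (*S100A2*, *S100A14*) and cells with a motile phenotype (*S100A4*).

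In the hg38 coordinates of Gencode, the members fell into 2 separate blocks. *S100A10* (chr1:151982915-151993859, minus strand) and *S100A11* (chr1:152032506-152047907, minus strand) formed the first. The second began 1495706 bases farther on and spanned 88426 bases, from *S100A4* (chr1:153543613-153550136) through *S100A2* (chr1:153561108-153567890), *S100A16* (chr1:153606886-153613145), *S100A14* (chr1:153614255-153616986) and *S100A13* (chr1:153618787-153631360), which are all on the minus strand, to *S100A1* (chr1:153627926-153632039), the only member on the plus strand. *S100A16* and *S100A1* therefore face in opposite directions, with 14781 bases between the outer annotated starts. *S100A14* and *S100A13* lie between or across these 2 genes. *S100A1* and *S100A13* overlap on opposite strands over 3435 bases. Of these, 235 are exonic in both, which is 7.76% of the exonic bases of *S100A1* and 10.6% of those of *S100A13*. The library kit keeps the strand, but whether the counting used it is not given in the sources used here, so reads from these shared bases could have been counted for either gene.

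The windows around the RefSeq transcription starts (GRCh38.p14, 250 bases before to 50 after each start) are shown for 4 genes of the second block, because *S100A16* and *S100A1* carried the changes and *S100A14* and *S100A13* lie next to them, and for *S100A10* as a CpG-rich contrast. They read 5′ to 3′ on the strand of each gene. Capitals mark matches to TATAA on the strand of the gene. They also mark matches on either strand to the core of the antioxidant response element bound by NRF2 (TGACNNNGC) or to the κB motif bound by p65. The windows were also searched for the CArG box bound by SRF, the partner of MRTF-A and for the heat shock factor patterns TTCNNGAA and GAANNTTC, and none of these matched in the windows printed.
S100A16, chr1:153613088-153613387, minus strand: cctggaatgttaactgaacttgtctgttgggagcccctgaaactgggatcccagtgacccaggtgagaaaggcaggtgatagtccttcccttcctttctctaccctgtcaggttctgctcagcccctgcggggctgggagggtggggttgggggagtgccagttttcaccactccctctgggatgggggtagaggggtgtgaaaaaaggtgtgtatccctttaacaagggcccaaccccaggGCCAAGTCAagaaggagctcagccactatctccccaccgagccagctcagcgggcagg
S100A1, chr1:153628184-153628483, plus strand: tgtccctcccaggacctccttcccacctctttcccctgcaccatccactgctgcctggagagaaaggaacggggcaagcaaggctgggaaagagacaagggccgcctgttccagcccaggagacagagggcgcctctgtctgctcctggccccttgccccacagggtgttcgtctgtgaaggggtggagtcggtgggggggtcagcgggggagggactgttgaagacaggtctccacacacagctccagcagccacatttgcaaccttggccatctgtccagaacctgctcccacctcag
S100A14, chr1:153616276-153616575, minus strand: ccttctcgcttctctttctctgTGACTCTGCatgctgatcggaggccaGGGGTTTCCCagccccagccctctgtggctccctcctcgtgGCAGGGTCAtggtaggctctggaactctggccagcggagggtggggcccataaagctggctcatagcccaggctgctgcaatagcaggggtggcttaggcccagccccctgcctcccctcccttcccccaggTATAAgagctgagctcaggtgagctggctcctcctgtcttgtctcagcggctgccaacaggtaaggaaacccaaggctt
S100A13, second of 3 starts, chr1:153627456-153627755, minus strand: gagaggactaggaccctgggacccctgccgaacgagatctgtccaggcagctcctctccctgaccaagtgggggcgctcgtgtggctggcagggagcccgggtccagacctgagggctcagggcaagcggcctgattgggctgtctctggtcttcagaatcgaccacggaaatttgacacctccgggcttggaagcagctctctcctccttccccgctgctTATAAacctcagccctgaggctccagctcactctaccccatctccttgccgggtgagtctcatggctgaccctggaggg
S100A10, chr1:151993810-151994109, minus strand: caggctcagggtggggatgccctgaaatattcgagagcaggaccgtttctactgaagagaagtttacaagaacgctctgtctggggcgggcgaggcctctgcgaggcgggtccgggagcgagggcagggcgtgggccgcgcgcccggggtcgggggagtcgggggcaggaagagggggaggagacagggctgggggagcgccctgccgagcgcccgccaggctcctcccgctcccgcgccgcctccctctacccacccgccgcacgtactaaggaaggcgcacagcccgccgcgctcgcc

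The *S100A16* window held 1 NRF2 core, which began 8 bases before the start, and no TATAA. Its second RefSeq start lies 3782 bases downstream, and that window matched none of the motifs. The *S100A1* window also held no match to any motif searched. *S100A14* held 2 NRF2 cores, 1 κB match and a TATAA 29 bases before its start. The second *S100A13* start lies 929 bases from that of *S100A1*, with the 2 genes read away from each other, and had a TATAA at the same place. Of the *S100A13* windows not printed, the first, which lies past the end of *S100A1*, held 1 NRF2 core, and the third held 1 TTCNNGAA. Over all 35114 RefSeq windows of this length, TGACNNNGC was in 13.3%, the κB motif in 5.91% and TATAA in 14.8%. TTCNNGAA was in 7.74%, GAANNTTC in 6.77% and the CArG box in 1.29%. These matches are descriptions of letters and do not show that a factor binds. The motifs are those of the parent factors, whereas MSN was built from activation domains of such factors. Recruitment of any effector to these motifs was not tested.

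The windows of the members differed in CpG content along with the level of the gene in the control. The *S100A16* windows held 3 and 8 CpG pairs, *S100A1* held 6, *S100A14* held 5, *S100A4* held 8 and *S100A2* held 5 and 4. By contrast, *S100A10* held 32, *S100A11* held 22 and the 3 *S100A13* windows held 19, 11 and 12, where the median of all windows was 14, with quartiles of 4 and 28. Levels compared between genes are given per kb of exon, since longer transcripts yield more reads. The length used was that of the merged exons of all annotated transcripts, 3030 bases for *S100A1*, 946 for *S100A4* and 649 for *S100A11*. The level per kb is too low for a gene whose RNA is shorter than its merged exons, and which transcripts were present was not measured. In the control, the mean level per kb was 83.9 CPM for *S100A11*, 32.7 for *S100A10* and 19.4 for *S100A13*. It was 1.59 CPM per kb for *S100A4*, 0.429 for *S100A2*, 0.379 for *S100A1*, 0.295 for *S100A16* and 0.114 for *S100A14*. The ranges of *S100A2*, *S100A1* and *S100A16* overlapped in the control libraries, so their order there is not resolved. The members at a high level in the control thus had more CpG pairs at their starts than the members at a low level.

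**Figure D1:**
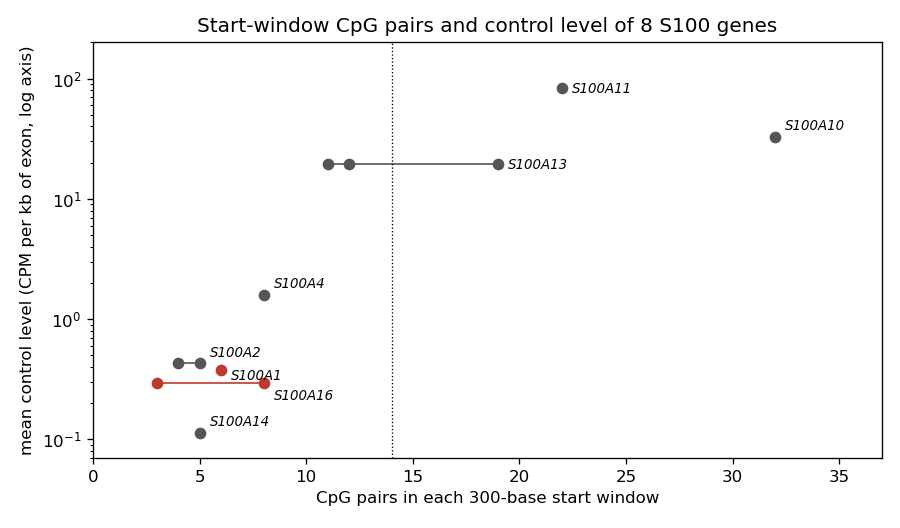
CpG pairs in each 300-base start window (x axis) against the mean level of the gene in the 2 control libraries, in CPM per kb of exon on a log axis (y axis). Each point is a RefSeq start, a line joins the starts of 1 gene, red marks *S100A16* and *S100A1*, and the dotted line is the median of all windows, 14; the 5 genes under 2 CPM per kb hold 3 to 8 pairs in each window.

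The targeted genes were examined first. *HBG2* stood at 0.837 and 1.29 CPM in the control libraries, 2187 and 2874 in DREAM, 707 and 860 in SAM, and 201 and 218 in dCas9-VPR. *HBG1* is nearly identical to *HBG2*, and how reads were split between them is uncertain. The 5 HEK293T markers *PAX2*, *LHX1*, *NEFL*, *NEFM* and *INA* were all detected, with a summed level of 70.8 to 76.7 CPM in the control, 88.7 to 97.2 in DREAM, 94.4 to 107 in SAM and 79.3 to 89.8 in dCas9-VPR. None of the 5 passed the threshold in any comparison, against 0.721% to 4.34% of all genes, depending on the comparison. The keratinocyte marker *KRT5* stood at 0 to 0.0963 CPM in all libraries. Among myeloid markers, only *CD14* was in the files, at 0.225 to 1.19 CPM. It was lower in dCas9-VPR than in the control, at the edge of both thresholds (log2 fold change -1.01, limma adjusted P = 0.0498). *CD14* reached 1 CPM only in the second control library and the second DREAM library, so this difference is given as a description. The melanocyte marker *PMEL* stood at 11.8 and 13.5 CPM in the control against 22.1 and 27.0 in DREAM, 16.2 and 18.9 in SAM and 16.9 and 22.2 in dCas9-VPR. The other markers of these cell types were not analysed here, and the part of any of these genes in the S100 levels was not tested.

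*S100A16*, a broadly expressed member of the family, was nearly silent in the control and had its highest level in DREAM. The control libraries gave 0.351 and 0.652 CPM, compared with 19.6 and 21.7 in DREAM, 9.86 and 10.5 in SAM, and 4.89 and 4.81 in dCas9-VPR. No 2 groups overlapped, and the order was DREAM, SAM, dCas9-VPR and control. The log2 fold change relative to the control, on the log2(CPM + 0.5) scale, was 4.42 (SE 0.15) in DREAM, 3.43 (SE 0.15) in SAM and 2.43 (SE 0.15) in dCas9-VPR. This scale understates the change of a gene so low in the control, and the ratio of mean CPM was 41.3, 20.3 and 9.68 respectively. Among the 15122 genes tested, *S100A16* had the fourth largest rise in each of the 3 comparisons.

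*S100A1*, known for binding the ryanodine receptor and the SERCA pump in heart and skeletal muscle, was also low in the control, but the order of the systems differed. It stood at 1.12 and 1.18 CPM in the control, 19.2 and 26.9 in DREAM, 4.79 and 6.11 in SAM, and 10.7 and 11.1 in dCas9-VPR. Again no 2 groups overlapped, but here dCas9-VPR stood above SAM. The log2 fold change relative to the control was 3.82 (SE 0.16) in DREAM, 1.85 (SE 0.16) in SAM and 2.79 (SE 0.16) in dCas9-VPR. The ratio of mean CPM was 20.1, 4.76 and 9.51. *S100A1* ranked number 6 from the top of all genes in DREAM, number 69 in SAM and number 3 in dCas9-VPR.

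**Figure D2:**
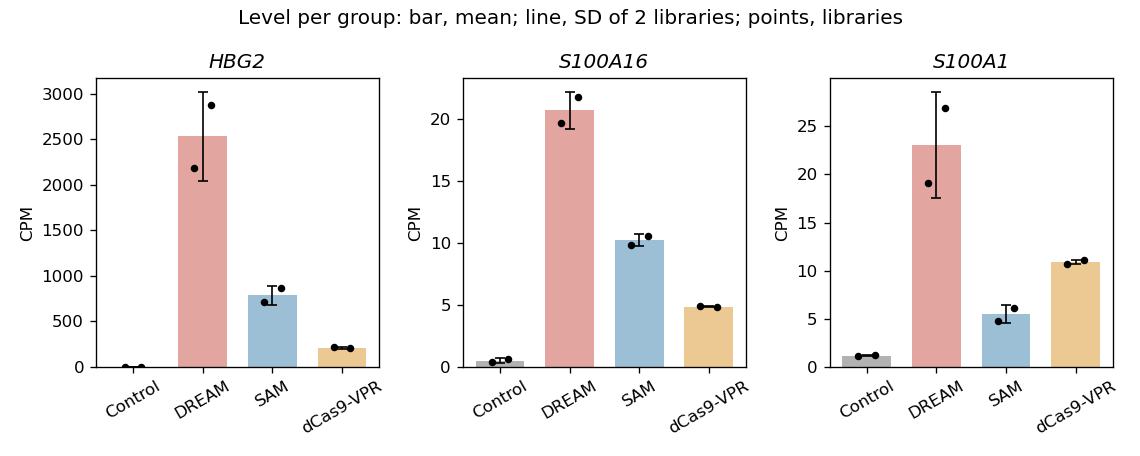
Level in CPM (y axis, linear and starting at 0) of *HBG2*, *S100A16* and *S100A1* in the 4 groups. Bars are means, lines are the SD of 2 libraries and points are libraries; *S100A16* falls from DREAM through SAM to dCas9-VPR as *HBG2* does, whereas *S100A1* is higher in dCas9-VPR (10.7 and 11.1) than in SAM (4.79 and 6.11).

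*S100A13*, which takes part in the release of FGF1 without a signal peptide, was well expressed in every group. It stood at 40.4 and 45.4 CPM in the control, 65.2 and 79.4 in DREAM, 64.9 and 80.8 in SAM, and 69.0 and 69.5 in dCas9-VPR. All 6 libraries with an activator were above both control libraries, by a log2 fold change of 0.74 in DREAM, 0.75 in SAM and 0.69 in dCas9-VPR (SE 0.12 in each), under the fold threshold of 2. While its overlapping partner *S100A1* had well separated levels in the 3 systems, the *S100A13* libraries of the 3 systems overlapped. *S100A14*, an epithelial gene whose start is 3841 bases past that of *S100A16*, remained close to the detection limit. The control libraries gave 0.128 and 0.163 CPM for it, compared with 0.443 and 0.492 in DREAM, 0.572 and 0.967 in SAM, and 0.401 and 0.257 in dCas9-VPR, where 3 reads are worth an estimated 0.0854 to 0.105 CPM. The activator libraries were above the control libraries, with SAM highest, but none reached 1 CPM.

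*S100A4*, which binds non-muscle myosin and is known from studies of cell motility, stood at 1.40 and 1.60 CPM in the control, 1.96 and 2.81 in DREAM, 3.0 and 4.75 in SAM, and 2.06 and 2.37 in dCas9-VPR. Its log2 fold change was 0.51 in DREAM, 1.10 in SAM and 0.44 in dCas9-VPR (SE 0.22 in each), so that it was past the threshold in SAM. The difference between DREAM and SAM was -0.59 (limma adjusted P = 0.101), with an adjusted P of 0.00963 to 0.483 over the alternatives. That call rested on the second SAM library, without which the value was 0.81. *S100A2*, a gene of basal epithelial cells, did not follow the others, with 0.511 and 0.815 CPM in the control, 0.348 and 0.457 in DREAM, 0.486 and 0.682 in SAM, and 0.658 and 0.898 in dCas9-VPR. DREAM held its lowest libraries.

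The first block, about 1.5 Mb away, held 2 well-expressed genes with small differences. *S100A10*, the annexin A2 partner that does not need calcium, stood at 31.5 and 34.7 CPM in the control, 29.9 and 30.8 in DREAM, 32.6 and 30.3 in SAM, and 44.4 and 42.0 in dCas9-VPR. Its highest libraries were those of dCas9-VPR, with a log2 fold change of 0.38 (SE 0.08) over the control, against -0.12 in DREAM and -0.07 in SAM. *S100A11*, an annexin A1 partner, stood at 56.2 and 52.8 CPM in the control, 67.9 and 62.1 in DREAM, 74.9 and 73.6 in SAM, and 63.8 and 65.2 in dCas9-VPR, which is a log2 fold change of 0.25, 0.44 and 0.24 (SE 0.07 in each).

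**Figure D3:**
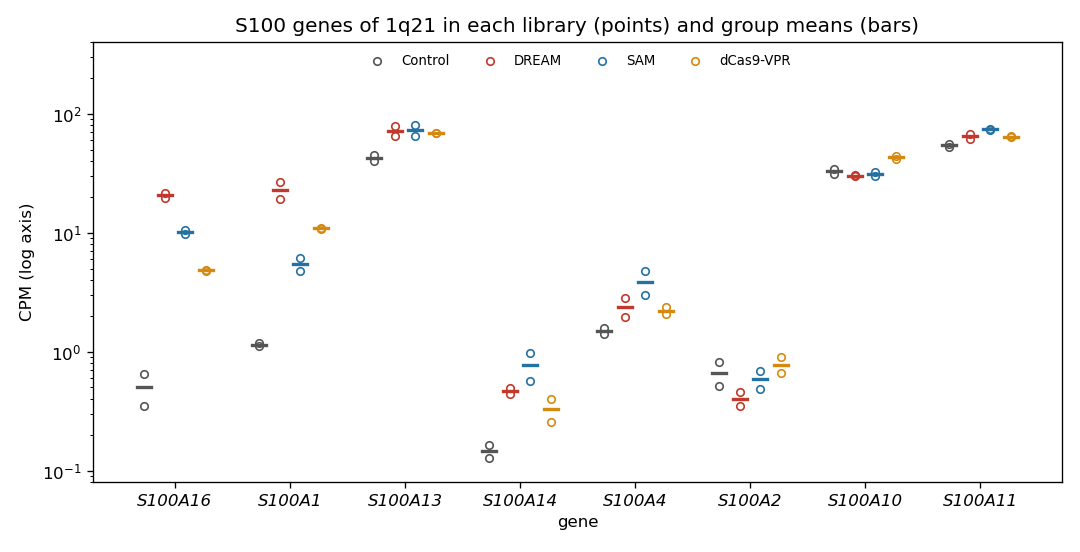
Level in CPM (y axis, log scale) of the 8 members in each library (points) with group means (bars) for the 4 groups. *S100A16* and *S100A1* span from near 1 CPM or less in the control to around 20 in DREAM, *S100A14* and *S100A2* stay under 1 CPM, and *S100A10*, *S100A11* and *S100A13* stay above 29 CPM in each library.

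A gene was called when its fold change was above 2 with a Benjamini-Hochberg false discovery rate (FDR) below 0.05. By this threshold 2 of the 6 tested members were called in DREAM relative to the control (*S100A16* and *S100A1*), against 2.55% of all genes. In SAM 3 members were past it (*S100A16*, *S100A1* and *S100A4*), against 4.34% of all genes, and in dCas9-VPR 2 members (*S100A16* and *S100A1*), against 1.1%. All these calls were rises. The members were chosen for the high *S100A16* and *S100A1* levels, and *S100A16* passed the filter only through activator libraries. The calls are therefore descriptions and no test of the members as a set. The median log2 fold change of the 6 tested members was 0.63 in DREAM, 0.93 in SAM and 0.56 in dCas9-VPR, beside 0.06, 0.16 and 0.06 for all genes. The 3 comparisons share the control libraries. Scaling by the median of ratios moved the median of all genes in SAM by -0.17 relative to the CPM scale. The direction of each member relative to the control was the same on both scales, while *S100A4* in SAM then fell short of the fold threshold at 0.95.

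The differences between systems do not use the control levels, but the control libraries enter the shared estimate of the spread behind each SE and adjusted P. The choice of members also rests in part on the same activator libraries, so these P values are not independent of that choice. *S100A1* was higher in DREAM than in SAM by 1.97 on the log2 scale (SE 0.16, limma adjusted P = 0.000598), and it was the only member past the threshold, against 0.721% of all genes. *S100A16* was higher in DREAM than in SAM by 0.98 (SE 0.15, limma adjusted P = 0.00778), just short of a fold change of 2, and with an adjusted P of up to 0.0811 over the alternatives, without the second SAM library. Between DREAM and dCas9-VPR, *S100A16* (1.98, SE 0.15, limma adjusted P = 0.00014) and *S100A1* (1.03, SE 0.16, limma adjusted P = 0.00419) were past the threshold, against 0.734% of all genes. The *S100A1* call between DREAM and dCas9-VPR was lost without the second DREAM library, when the difference was 0.79.

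In SAM relative to dCas9-VPR the 2 genes went in opposite directions. *S100A16* was higher in SAM by 1.00 (95% interval 0.66 to 1.33, limma adjusted P = 0.00118), whereas *S100A1* was lower in SAM by a log2 difference of -0.95 (95% interval -1.31 to -0.58, limma adjusted P = 0.0023). Both FDR values were below 0.05, but neither difference was past a fold change of 2, and 0 members were called, against 2.31% of all genes. Without the first SAM library or the first dCas9-VPR library *S100A16* was called, at 1.04 and 1.01, and without the second SAM library *S100A1* was called, at -1.11. The ratio of *S100A1* to *S100A16* within a library shows the same separation. It was 3.18 and 1.80 in the control, 0.975 and 1.24 in DREAM, 0.486 and 0.580 in SAM, and 2.19 and 2.30 in dCas9-VPR. The 3 systems did not overlap in this ratio, and it is given as a description.

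Other members differed less between systems. *S100A10* was lower in DREAM than in dCas9-VPR by a log2 difference of -0.50 (SE 0.08, limma adjusted P = 0.00367) and lower in SAM than in dCas9-VPR by -0.45 (SE 0.08, limma adjusted P = 0.00216). *S100A4* was higher in SAM than in dCas9-VPR by 0.66 (SE 0.22, limma adjusted P = 0.0408), and *S100A11* by 0.20 (SE 0.07, limma adjusted P = 0.0401). Neither difference was stable. That of *S100A4* was 0.37 without the second SAM library, with an adjusted P of up to 0.309 over the alternatives, and that of *S100A11* was 0.07 with median-of-ratios scaling, with an adjusted P of up to 0.385. The *S100A10* difference between DREAM and dCas9-VPR had an adjusted P of up to 0.0528, without the first dCas9-VPR library. For *S100A13*, the 95% interval of the difference between DREAM and SAM was -0.27 to 0.25, between DREAM and dCas9-VPR -0.20 to 0.31, and between SAM and dCas9-VPR -0.19 to 0.32, each of which includes 0.

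Measured from the annotated start of *S100A16*, *S100A14* starts at 3.84 kb, *S100A1* at 14.8 kb and *S100A13* at 18.2 kb, whereas *S100A2* starts at -45.3 kb and *S100A4* at -63.0 kb. The 2 members past the threshold in every system thus have starts 14781 bases apart, and the 2 genes between or across them, *S100A14* and *S100A13*, also had each activator library above both control libraries. *S100A14* was not tested for its low level, and its ratio of mean CPM to the control was 3.22 in DREAM, 5.29 in SAM and 2.26 in dCas9-VPR. *S100A13* was below the fold threshold. The activator libraries were likewise all above the control libraries for *S100A4*, and for *S100A11* in the first block, but not for *S100A2* or *S100A10*. The share of all genes separated in this way was not worked out, and the median of all genes also rose (0.06, 0.16 and 0.06 in DREAM, SAM and dCas9-VPR). The separation is therefore only a description of these genes. A relation of the change to position was not tested. Of 18 other genes within 250 kb of a member, 12 were tested and 0 were past the threshold in any of the 6 comparisons by limma. Of all genes, 0.721% to 4.34% were past it, depending on the comparison. At those shares 0 of 12 is no result about the neighbours. The log2 fold changes of the 12 neighbours ran from -0.16 to 0.37 in DREAM, from -0.24 to 0.82 in SAM and from -0.20 to 0.37 in dCas9-VPR relative to the control. With the FDR alone, 9 of these neighbours were below 0.05 in at least 1 comparison. Relative to the control these were 3 in DREAM, 7 in SAM and 2 in dCas9-VPR, where 4236, 6743 and 2666 of all 15122 genes passed.

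The nearest tested neighbour downstream of *S100A1* is *CHTOP*, a chromatin-associated RNA export factor that starts 1942 bases past its end on the same strand. *CHTOP* stood at 161 and 165 CPM in the control, 165 and 169 in DREAM, 167 and 170 in SAM, and 143 and 140 in dCas9-VPR, a log2 fold change of 0.03, 0.05 and -0.20 (limma adjusted P = 0.64, 0.452 and 0.0188). The RNA *AL162258.1* on the minus strand is antisense to *S100A1* and also overlaps *S100A13* on the same strand. The exonic bases it shares with either were not measured, so reads could be shared with *S100A13*. *AL162258.1* stood at 1.42 and 1.42 CPM in the control, 1.54 and 1.96 in DREAM, 2.49 and 3.35 in SAM, and 1.43 and 1.49 in dCas9-VPR. It was highest in SAM, by a log2 fold change of 0.82 (limma adjusted P = 0.00421), where *S100A1* had the lowest of its 3 activator levels. Without the first SAM library it was past the threshold. On the other side, the nearest tested gene to *S100A16* was *S100A4*, and toward *S100A1* it was *S100A13*.

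**Figure D4:**
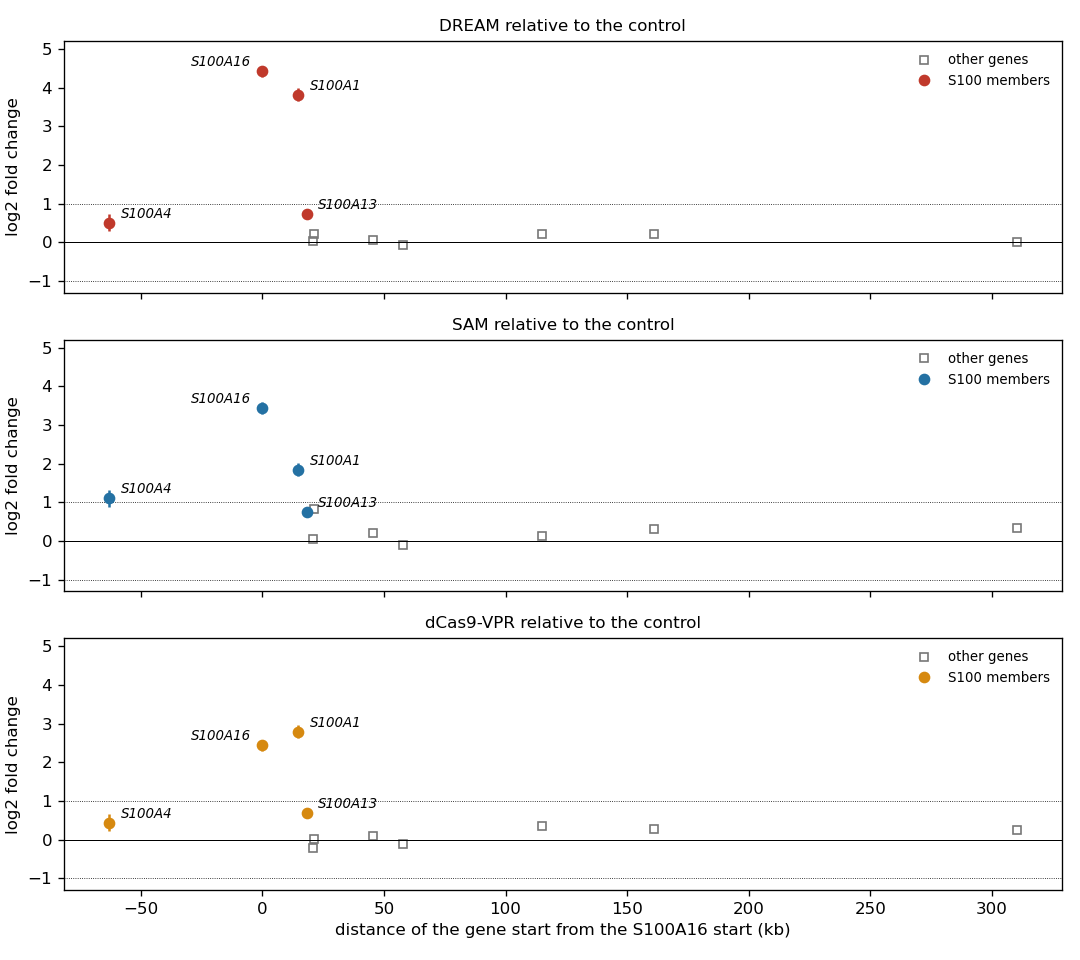
Log2 fold change relative to the control on the log2(CPM + 0.5) scale (y axis) against the distance of each gene start from the *S100A16* start in kb (x axis), in DREAM, SAM and dCas9-VPR. Filled points with SE bars are tested members of the second block, open squares are other tested genes within 250 kb, and dotted lines mark a fold change of 2; *S100A16* and *S100A1* stand above it in all 3 panels, *S100A4* in SAM, and no open square does.

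The remaining S100 genes of 1q21 that the files list, *S100A3* of the hair cuticle and *S100A5* of olfactory neurons, lie at *S100A4* and were below 1 CPM in each library. *S100A3* was listed at 0 and 0.0326 CPM in the control and stood at 0.316 and 0.351 in DREAM, 0.257 and 0.256 in SAM, and 0.172 and 0.0963 in dCas9-VPR. *S100A5* was listed at 0 in both control libraries and stood at 0.0633 and 0.176 CPM in DREAM, 0.172 and 0.256 in SAM, and 0.115 and 0.128 in dCas9-VPR. As 3 reads are worth about 0.1 CPM, these values rest on few reads. The other 5 genes on the list for 1q21 were not analysed here.

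Among S100 genes on other chromosomes, *S100B*, the glial member, was nearly absent in the control. The control libraries held 0.0319 and 0.0652 CPM, compared with 1.04 and 1.30 in DREAM, 0.800 and 1.28 in SAM, and 0.258 and 0.481 in dCas9-VPR. All activator libraries were above the control libraries, and those of DREAM and SAM overlapped. *S100Z* stood at 0.255 and 0.228 CPM in the control, 0.728 and 0.878 in DREAM, 1.54 and 1.71 in SAM, and 0.515 and 0.546 in dCas9-VPR. The SAM libraries were the highest. Both genes reached 1 CPM only in the groups where they were high, so no test of these differences is given. *S100P*, first described in placenta, did not pass the threshold in any comparison, with a range of 1.15 to 2.26 CPM over all libraries.

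The known partners of S100 proteins were examined as a list of 17 genes, of which 16 were in the files and 15 were tested. None of the 15 was past the threshold in any of the 6 comparisons, against 0.721% to 4.34% of all genes, depending on the comparison. At those shares 0 of 15 is no result about the partners. Their median log2 fold change was 0.00 in DREAM, 0.17 in SAM and 0.18 in dCas9-VPR relative to the control, beside 0.06, 0.16 and 0.06 for all genes. *ANXA2*, the annexin bound by *S100A10*, stood at 115 to 118 CPM in the control and 115 to 118 in DREAM, against 125 to 137 in SAM and 129 to 135 in dCas9-VPR. *AHNAK*, a large scaffold protein that binds the annexin A2 and S100A10 complex, had the largest difference of the list, from 8.64 and 9.60 CPM in the control to 15.9 and 16.9 in dCas9-VPR (log2 fold change 0.81, SE 0.12, limma adjusted P = 0.0021). It is below a fold change of 2, and *S100A10* also had its highest libraries in dCas9-VPR. In SAM, however, *AHNAK* was also higher, at 14.9 and 11.9 CPM (log2 fold change 0.53, SE 0.12, limma adjusted P = 0.00506). There *S100A10* had a log2 fold change of -0.07. In DREAM the log2 fold change was 0.03 for *AHNAK* and -0.12 for *S100A10*. A relation between the 2 genes was not tested. *MYH9*, the myosin bound by *S100A4*, stood at 35.1 to 48.3 CPM in the control and 53.8 to 64.1 in SAM (log2 fold change 0.51, SE 0.15, limma adjusted P = 0.0225). Its level was 56.7 to 67.8 CPM in dCas9-VPR (0.59, SE 0.15, limma adjusted P = 0.0288), where *S100A4* was not called. In DREAM it was 45.6 to 53.5 CPM (0.26, SE 0.15, limma adjusted P = 0.234). *FGF1*, released with *S100A13*, stayed below 0.35 CPM, and *AGER*, which encodes RAGE, ranged from 0.281 to 1.14 CPM over all libraries.

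The genes whose pattern over the 8 libraries was most like that of *S100A16* were *SV2A*, *LOXL3*, *RRAS*, *SGCA* and *SLC38A3*, with Pearson's r of 0.996, 0.996, 0.994, 0.992 and 0.988 on the log2(CPM + 0.5) scale, out of 969 genes with a log2 range of at least 1 between group means. *SV2A*, a synaptic vesicle protein, stood at 35.5 and 36.3 CPM in the control, 78.1 and 80.3 in DREAM, 65.3 and 64.8 in SAM, and 52.9 and 52.5 in dCas9-VPR. It shares the order of the systems with *S100A16* over a much smaller range. Those most like *S100A1* were *PDZD7*, *LRG1*, *EMILIN1*, *HS3ST6* and *CRABP2*, with r of 0.988, 0.987, 0.986, 0.982 and 0.965. *CRABP2*, a retinoic acid binding protein, stood at 31.8 and 34.5 CPM in the control, 69.1 and 89.5 in DREAM, 49.3 and 59.6 in SAM, and 52.7 and 61.7 in dCas9-VPR. The r between *S100A16* and *S100A1* was 0.891, which placed *S100A1* at number 198 for *S100A16* and *S100A16* at number 39 for *S100A1*. All these values come from the same 8 libraries, with 2 per group, and are given as descriptions.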

How the data were processed

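RNA-seq of HEK293T cells was carried out in 4 groups of 2 libraries each. The authors aligned paired-end reads with STAR 2.7.3a to hg38 with a Gencode annotation, obtained expression with a Bayesian method and deposited it as CPM, each value offset by 0.0001. The authors tested differential expression with DESeq2. Samples were grouped from the labels. Low CPM values gave an estimated depth of 28.45 to 35.14 M reads per library, at which 3 reads are worth 0.0854 to 0.105 CPM. As 62.1 to 67.3% of low values came out as whole reads, reads were not recovered and no count model was run.

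The linear model of limma (version 3.58.1, R version 4.3.3, with trend and robust set) was applied to log2(CPM + 0.5) of all 8 libraries, with 4 groups, 4 residual degrees of freedom and 6 contrasts. Genes had to reach 1 CPM in 2 or more libraries, which left 15122, over which P values were adjusted by Benjamini-Hochberg. The threshold was a fold change above 2 and an FDR below 0.05. The fit was tested on simulated data. Alternatives are given in the closing section.

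The members, the gene lists and the tests were chosen with earlier results of these data known. The genes named were the members, the other S100 genes, S100 partners, cell type markers, the nearest tested neighbours, neighbours past the threshold, the 5 genes most like *S100A16* and *S100A1*, and the targets. Exons came from Gencode 44, whose starts of the members equal those of the files, and start windows from RefSeq, with all 8 members matched. One item is not reported here.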

Additional observations from a re-analysis of the deposited data

How the results depend on the processing

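*S100A16* and *S100A1* stayed past the threshold relative to the control in all 3 systems under each of the 17 alternatives run. Both genes were chosen for their high levels in activator libraries, so this describes the fits and gives no independent support. At the filter of 10 CPM both genes passed only through activator libraries. Without a fold change threshold, 4 of the 6 tested members in DREAM, 5 in SAM and 5 in dCas9-VPR had an FDR below 0.05 relative to the control. These counts are descriptions, for the same reason. Beside them, 4236, 6743 and 2666 of all 15122 genes passed. Between DREAM and SAM 2 members passed, against 1623 of all genes, and between SAM and dCas9-VPR 5 passed, against 4522. Of the neighbours, 9 passed in at least 1 comparison. Between DREAM and SAM, 2 members were called with a pseudocount of 0.1 or median-of-ratios scaling; between DREAM and dCas9-VPR, 1 was called with a pseudocount of 1; and between SAM and dCas9-VPR, 1 was called with a pseudocount of 0.1 or median-of-ratios scaling. *S100A4* in SAM fell short of a fold change of 2 with a pseudocount of 1 (0.94), with median-of-ratios scaling (0.95) and without the second SAM library (0.81). Leaving out 1 library at a time gave 1 to 2 members between DREAM and SAM, 1 to 2 between DREAM and dCas9-VPR, 0 to 1 between SAM and dCas9-VPR, and 0 to 1 neighbours; where an arm had 1 library, it was assumed to vary like the other groups.

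The members' differences that changed sign were those between systems listed here. With median-of-ratios scaling, *S100A10* (0.0568) and *S100A13* (0.0979) reversed between DREAM and SAM, *S100A11* (-0.0142) between DREAM and dCas9-VPR, and *S100A13* (-0.0653) between SAM and dCas9-VPR. Over the fits that left out 1 library, the difference between DREAM and SAM ran from -0.103 to 0.0042 for *S100A10* and from -0.167 to 0.148 for *S100A13*. That between DREAM and dCas9-VPR ran from -0.14 to 0.287 for *S100A4*, from -0.0552 to 0.0728 for *S100A11* and from -0.0856 to 0.197 for *S100A13*, and that between SAM and dCas9-VPR from -0.0928 to 0.222 for *S100A13*. The cause was not tested. Over all genes, the share of calls that were rises moved from 89.5% to 77.4% in SAM relative to the control and from 16.5% to 29.4% in DREAM relative to SAM with that scaling. The correlation of replicate differences between groups was 0.133 to 0.326, a hint of a shared effect of the number, but the labels do not say what a number marks and 2 numbers are too few to establish a pairing. With the replicate block, 2, 3 and 2 members were called in DREAM, SAM and dCas9-VPR relative to the control, as without it, and 391, 660 and 171 of all genes against 385, 657 and 167, while the adjusted P between DREAM and SAM was 0.00963 for *S100A4* and 0.00843 for *S100A11*, against 0.101 and 0.0823 without it. A filter at 10 CPM, which tested 10183 genes in place of 15122, left 104, 145 and 41 such calls. The calls thus fell by a larger share than the genes tested. Depth limits *S100A2*, *S100A3*, *S100A5* and *S100A14*, which rest on few reads.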
